A study of Mus musculus with 768 samples.

Results

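The cells described here are sympathoblasts, the immature neurons of the sympathetic chain, that carry transcripts of Slc18a3, the vesicular acetylcholine transporter. They were picked from single-cell RNA sequencing of the sympatho-adrenal anlage of mouse embryos at embryonic days E12.5 and E13.5. A well was kept with at least 50000 reads on genes, and levels are given in CPM, the reads of a gene divided by the well's reads on genes and multiplied by 1000000. The sympathoblast gate asked for Prph (the neuronal filament peripherin) at 100 CPM or more, Dbh (dopamine beta-hydroxylase, which makes noradrenaline) at 500 CPM or more, Chgb (chromogranin B of chromaffin granules) under 1000 CPM and Sox10 (a glial and neural crest factor) under 100 CPM. Within the gate, wells with Slc18a3 at 50 CPM or more are called Slc18a3 wells, and the rest comparison wells. There were 70 Slc18a3 wells among 98 gate wells and 751 kept wells of 768 in all, 21 of them at E12.5 and 49 at E13.5. Comparison wells numbered 1 at E12.5 and 27 at E13.5.

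All embryos carried Wnt1-Cre, a driver active in the neural crest, and the R26Tomato reporter, so every well is a sorted Tomato+ cell of crest origin, and no other genotype or treatment is used here. Each age is 1 plate of 384 wells. The labels name no embryo or litter, so each age counts as 1 sample and wells are not replicates. No test was possible and none is given. Intervals are exact 95% Poisson intervals for summed reads and exact 95% Clopper-Pearson intervals for shares of wells. They cover counting error only, since Smart-seq2 reads carry no molecular identifiers. The groups were cut on Slc18a3 itself, so any gene that varies with it had to differ between them, and the differences below are descriptions.

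Sympathetic neurons are best known for releasing noradrenaline, but a minority release acetylcholine, most of them on sweat glands and other targets outside the blood vessels. Acetylcholine is made by choline acetyltransferase (Chat), loaded into vesicles by Slc18a3, and recycled as choline by the transporter Slc5a7. Slc18a3 and Chat form the cholinergic gene locus, in which the transporter gene sits inside its neighbour. In mouse sympathetic ganglia, cells with both cholinergic and noradrenergic transcripts have been described before birth, with later segregation under the RET receptor, gp130 cytokines and transcription factors such as Hmx1 and Tlx3.

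The promoter windows of the cholinergic locus and of 3 peptide genes read in many of these wells are shown. These 5 genes were picked by hand and not by a rule. Pooled Vip and Cartpt differed by less than 2-fold between the groups at E13.5, while Slc5a7, Th and Npy, which differed by more, are not shown. Vip and Cartpt were also at high levels in comparison wells. In the GENCODE annotation of GRCm38, single-exon Slc18a3 lies within the span of Chat on the same strand and overlaps 0 of the 24 annotated Chat exons. The RefSeq start of Slc18a3 lies 1059 bases downstream of that of Chat. The windows are the 250 bases before each RefSeq start in GRCm38.p6, read 5′ to 3′ on the strand of the gene. Capitals mark TGACG, the core of the cAMP response element, or its reverse complement CGTCA, and the full element is TGACGTCA.
Slc18a3, chr14:32464851-32465100, minus strand: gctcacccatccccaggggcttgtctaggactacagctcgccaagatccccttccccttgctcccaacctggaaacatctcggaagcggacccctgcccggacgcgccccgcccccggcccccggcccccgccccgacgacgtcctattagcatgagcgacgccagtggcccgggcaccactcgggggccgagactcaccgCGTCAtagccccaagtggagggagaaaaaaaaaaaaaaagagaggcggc
Chat, chr14:32465910-32466159, minus strand: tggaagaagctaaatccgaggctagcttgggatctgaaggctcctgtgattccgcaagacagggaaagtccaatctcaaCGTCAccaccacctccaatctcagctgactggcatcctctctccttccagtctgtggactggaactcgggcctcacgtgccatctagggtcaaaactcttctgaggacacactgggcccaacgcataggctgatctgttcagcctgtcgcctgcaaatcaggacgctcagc
Vip, chr10:5638968-5639217, plus strand: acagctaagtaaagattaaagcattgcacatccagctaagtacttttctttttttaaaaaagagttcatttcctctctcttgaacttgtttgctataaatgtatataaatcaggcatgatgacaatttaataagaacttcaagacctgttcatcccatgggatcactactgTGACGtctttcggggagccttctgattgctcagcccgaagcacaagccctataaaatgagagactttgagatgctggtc
Sst, chr16:23890845-23891094, minus strand: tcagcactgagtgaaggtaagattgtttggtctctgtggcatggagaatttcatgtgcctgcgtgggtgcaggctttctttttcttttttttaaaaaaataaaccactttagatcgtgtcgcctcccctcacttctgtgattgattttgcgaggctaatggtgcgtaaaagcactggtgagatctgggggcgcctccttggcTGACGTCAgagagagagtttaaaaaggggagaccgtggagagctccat
Cartpt, chr13:99900684-99900933, minus strand: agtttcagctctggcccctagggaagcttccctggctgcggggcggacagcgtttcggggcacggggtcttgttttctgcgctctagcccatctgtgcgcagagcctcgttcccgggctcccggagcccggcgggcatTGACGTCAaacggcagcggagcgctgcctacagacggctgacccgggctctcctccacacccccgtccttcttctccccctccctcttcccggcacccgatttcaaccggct
Searched on both strands, TGACG was in the window of all 5 genes and the full TGACGTCA in those of Sst and Cartpt. Among all 32851 promoter windows of this length, 17.8% held TGACG and 1.55% held TGACGTCA. Of the 16 neuropeptide genes with a RefSeq window, 11 held TGACG and 3, Cartpt, Sst and Ucn, held TGACGTCA. Of 9 cholinergic genes 2, Chat and Slc18a3, held TGACG and 0 held TGACGTCA, and of 8 catecholamine genes with a window 4 held TGACG and 1, Th, held TGACGTCA. A match is a description of the letters and says nothing of binding.

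Of the label's markers, Slc18a3, Prph and Dbh were fixed by the limits, which leaves Cartpt and Vip. Cartpt was read in 21 of 21 and 45 of 49 Slc18a3 wells and Vip in 11 and 34. All 10 sympathetic neuron markers were read in the Slc18a3 wells at both ages, but Prph and Dbh of that list were fixed by the gate. Isl1, a neuronal identity factor, stood at 1164 CPM in E12.5 wells and 1091 CPM in E13.5 wells. Stmn2, a growth cone protein, reached 2206 and 3640 CPM. Chromaffin wells were wells of these plates with Chgb at 1000 CPM or more, Dbh at 500 CPM or more and Sox10 under 100 CPM. Chgb stood at 6870 and 15749 CPM in them against 180 and 61.01 CPM here, a difference fixed by the limits on Chgb. All 10 sympathetic neuron markers were read in chromaffin wells too, so that list does not separate the classes. Its summed median per well was 8407 and 12018 CPM there, against 9891 and 12347 CPM here. Of 10 chromaffin markers, 8 were at 5 CPM or more here at both ages and 9 in chromaffin wells. Pnmt, the adrenaline-forming enzyme, had 0 reads in the Slc18a3 wells at both ages, but also in the chromaffin wells of E12.5. Of 10 markers of spinal motor neurons, which are also cholinergic, Lhx3 and Olig2 had 0 reads at both ages, and the factors Mnx1 and Isl2 stood at up to 0.530 and 0.2504 CPM. Lhx4 had 5.47 CPM in the wells of E12.5 and 0.083 CPM in those of E13.5. The other 5 of that list, Slc5a7, Chat, Prph, Foxp1 and Hoxc9, were above 5 CPM at both ages, and Slc5a7 and Chat were higher than in comparison wells. Erythroid, immune and endothelial lists held no gene above 12.7 CPM. All 12 enteric neuron markers were read at both ages, 11 and 10 of them at 5 CPM or more, against 8 in E13.5 comparison wells. Their summed median per well was 3878 and 4459 CPM, and 3969 CPM in comparison wells. Enteric identity was not tested. Of 9 markers of bridge cells, between Schwann cell precursors and chromaffin cells, 7 and 6 were at 5 CPM or more. Of the melanocyte list Kit alone was, at 86.8 and 74.5 CPM. Of 12 mesenchyme markers, 8 at E12.5 and 2 at E13.5 had 0 reads, but Postn, a matrix protein, reached 59.3 and 108.9 CPM, against 1003 and 2802 CPM in glial wells (Sox10 at 100 CPM or more, Dbh under 100 CPM). Comparison wells of E13.5 had 19.7 CPM of Postn, so it was higher in Slc18a3 wells, with a log2 fold of 2.41, or 2.18 without the highest well. At E13.5 the summed mesenchyme level per well ran from 0 to 1088 CPM (median 18.3 CPM) in Slc18a3 wells and from 0 to 871 CPM (median 22.7 CPM) in comparison wells. The part of these transcripts in the results was not tested.

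Depth was close between the groups. Slc18a3 wells had a median of 292614 reads in E12.5 and 257004 in E13.5 wells, and the E13.5 comparison wells 255433. Median genes per well were 7479, 6707 and 6462, and 6321, 5765 and 5664 after thinning each well to 50000 reads. A gene without reads could lie at up to 0.530, 0.2504 and 0.451 CPM in the 3 pooled groups, the level of 3 reads. Sex was called from Xist and the Y-linked genes. It differed between the ages, with 6 female and 14 male Slc18a3 wells at E12.5, and 37 female and 12 male at E13.5. Of the E13.5 comparison wells 17 were female and 9 male. Wells of each sex come from different embryos, so sex and embryo cannot be told apart. Of the named genes of the E13.5 comparison with 5 CPM or more in either group of the 12 and 9 male wells, 42 kept their call. Another 10 changed sign and 23 fell short of 2-fold. The other named genes, Slc5a7, Htr3a, Htr3b, Calca and Calcb among them, were too low there for a value. Htr3b, Calca and Calcb had no read in any male Slc18a3 well of E13.5, and Slc5a7 reached at most 34.1 CPM in them. Male Slc18a3 wells of E12.5 did hold reads, at up to 814 CPM of Htr3b, 90.6 CPM of Calca and 370 CPM of Slc5a7. Among the 23 were Chat, Th, Slc6a2, Gfra1 (0.50), Hmx1 (0.41), Il6st (0.93), Casz1 (0.60), Syt1 (0.62), Resp18 (0.47), Cacna1b (0.85), Epha7 (-0.40), Bmpr1b (-0.92) and Ccne1 (-0.95), with log2 folds in male wells in brackets.

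Slc18a3 wells were a small class that made up most of the gate. They were 95.5% of gate wells at E12.5 (21 of 22, interval 77.2 to 99.9%) and 64.5% at E13.5 (49 of 76, interval 52.7 to 75.1%), and 5.53% and 13.2% of all kept wells. The gate itself held 5.79% and 20.5% of kept wells. At E13.5 the Slc18a3 wells nearest the limit had 50.9, 52.3 and 58.4 CPM and the nearest comparison wells 49.4, 37.9 and 35.2 CPM. At E12.5 the lowest Slc18a3 wells had 68.8 and 73.4 CPM and the single comparison well 0. With the limit at 100 CPM the numbers were 19 and 30 wells, and with it at 20 CPM 21 and 53. Outside the gate, 19 further wells at each age reached 50 CPM, of which 18 at E12.5 and 15 at E13.5 fell short on Prph. On Dbh 7 and 4 of the 19 fell short, and a well could fall short on both. Slc18a3 reached 50 CPM in 1 of 100 and 1 of 110 chromaffin wells, and in 0 of 89 and 0 of 87 glial wells, for which the exact intervals reach 4.06% and 4.15%.

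Among the Slc18a3 wells, the transporter itself ran from 68.8 CPM to 834 CPM (median 357.4 CPM) at E12.5 and from 50.9 CPM to 1323 CPM (median 167.7 CPM) at E13.5. E13.5 comparison wells ran from 0 to 49.4 CPM, and 20 of the 27 had no read. The E13.5 wells spread over a wider range, with 14 wells at 500 CPM or more and 35 below that. Pooled levels were 377.8 CPM (361.9 to 394) and 366.2 CPM (355.5 to 377.2), so the pooled level was nearly the same at both ages.

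Other genes of acetylcholine handling were also higher in Slc18a3 wells at E13.5. A gene counted as measured when it had 5 CPM or more in either group, and as higher or lower when its log2 fold, computed with 1 CPM added to both levels, reached 2-fold. Of the 9 cholinergic genes, 8 were measured, 5 were higher (the transporter itself, Chat, Slc5a7, Ache and Bche) and 1 was lower (Slc44a1, a general choline transporter), with a median log2 fold of 2.42. Slc18a3 cut the groups, so its call was fixed. Over the other 7 genes 4 were higher and 1 lower, with a median of 2.09, and Slc44a1 fell short of 2-fold without the highest well. Over all 11076 measured genes, 8.71% were higher and 6.11% lower, and the median was 0.01.

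Chat, the enzyme that makes acetylcholine, ran from 0 to 267.3 CPM over the 49 Slc18a3 wells (median 0) and from 0 to 69.98 CPM over the comparison wells (median 0). It was read in 24 of 49 against 2 of 27 wells, and the pooled levels were 42.5 CPM (38.9 to 46.3) and 5.42 CPM (3.79 to 7.50), a log2 fold of 2.76. The ranges overlapped at 0, where most comparison wells and many Slc18a3 wells sat. Thinning each well to 50000 reads left Chat reads in 42.9% and 7.41% of wells. In the 12 and 9 male wells alone the log2 fold was 0.38, short of 2-fold. Glial wells, which should lack the gene, had 0 Chat reads at both ages. At E12.5 Chat was read in 15 of 21 Slc18a3 wells (0 to 277.5 CPM, median 24.5 CPM).

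Slc5a7, the high-affinity choline transporter, was read in 15 of 49 Slc18a3 wells at E13.5 (0 to 277.05 CPM, median 0) and in 0 of the 27 comparison wells. Its pooled level of 39.1 CPM was at least 86.5-fold higher than the limit of 3 reads over the comparison group. At E12.5 it was read in 8 of 21 Slc18a3 wells, at up to 370 CPM. Ache, acetylcholinesterase, ran from 0 to 924 CPM in Slc18a3 wells and from 0 to 113.8 CPM in comparison wells, with pooled levels of 59.5 and 13.2 CPM and a log2 fold of 2.09. It was read in a similar share of wells (13 of 49 against 7 of 27), and without the highest well of the higher group the log2 fold was 1.77. Bche, a second cholinesterase, stood at 13.02 against 0.752 CPM, and was higher still in glial wells, at 330.9 CPM.

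**Figure D1:**
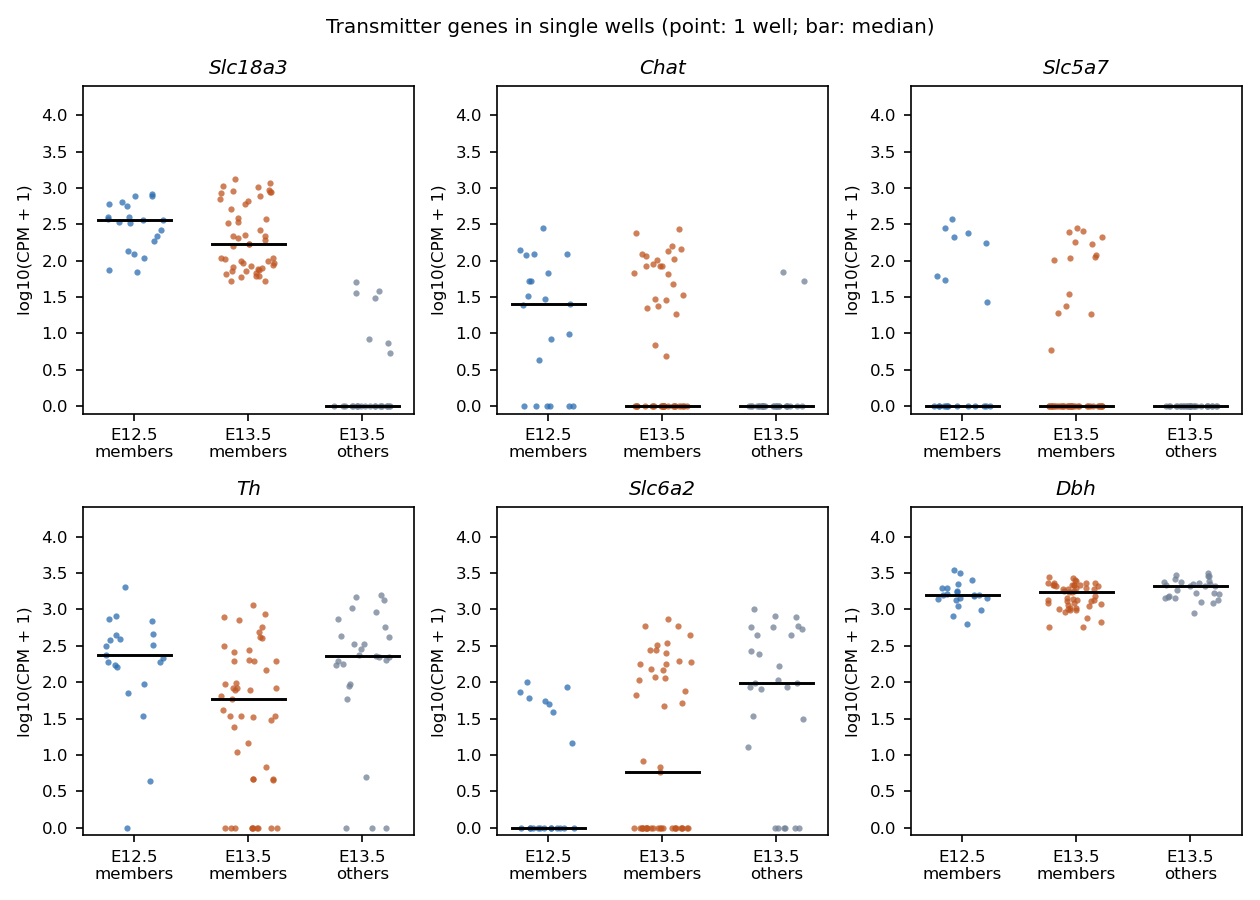
Levels of 6 transmitter genes in single gate wells as log10(CPM + 1), with 1 point per well and the median as a bar; members are the Slc18a3 wells and others the comparison wells. Slc5a7 has 0 reads in all 27 comparison wells and Chat in 25 of them. Th and Slc6a2 have lower medians in the E13.5 members than in the comparison wells, and Dbh is high in all 3 groups because the gate asks for it.

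The noradrenergic genes were kept, apart from 2 that were lower. Of 14 catecholamine genes 13 were measured at E13.5, 0 were higher and 2 were lower, Th (tyrosine hydroxylase, the first enzyme of the pathway) and Slc6a2 (the noradrenaline reuptake transporter). The median log2 fold of the list was -0.28. Th ran from 0 to 1145 CPM in Slc18a3 wells (median 57.6 CPM) and from 0 to 1584 CPM in comparison wells (median 226.9 CPM), so the ranges overlapped throughout and the medians differed. Pooled levels were 166.3 CPM (159.1 to 173.8) and 443 CPM (427 to 460), a log2 fold of -1.41. Th reached 50 CPM in 25 of 49 against 23 of 27 wells. The fold was -0.27 in plate rows A to H, -0.70 in male wells and -0.65 in wells with lower levels of cell cycle genes, each short of 2-fold.

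Slc6a2 ran from 0 to 735 CPM (median 4.90 CPM) in Slc18a3 wells and from 0 to 1013 CPM (median 96.1 CPM) in comparison wells, with pooled levels of 116.9 and 254.4 CPM and a log2 fold of -1.12. Plate rows A to H gave the opposite sign, 1.86, male wells -0.80, and leaving out the highest well of the higher group -0.97, so this call rests on part of the wells. The enzyme Ddc, which follows Th in the pathway, stood at 452 against 491 CPM, and the monoamine vesicle transporter Slc18a2 at 182.8 against 202.98 CPM. Maoa, which degrades monoamines, stood at 835 against 754 CPM. Dbh, a gene of the gate, was 1619 against 2005 CPM. Chromaffin wells of the same age had far more Th (3483 CPM), Ddc (1112 CPM) and Slc18a2 (1316 CPM), but less Slc6a2 (56.3 CPM) and Maoa (151.9 CPM).

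Cholinergic and noradrenergic transcripts shared wells. At E12.5, Chat or Slc5a7 reached 50 CPM in 11 of 21 Slc18a3 wells, and Th also did so in 10 of those 11. At E13.5, Chat or Slc5a7 reached 50 CPM in 17 of 49 wells, and Th also in 6 of those 17, against 19 of the 32 wells without them. A vesicular monoamine transporter, Slc18a1 or Slc18a2, reached 50 CPM in 20 of 21 and 44 of 49 wells. Wells with Chat or Slc5a7 and with Th under 50 CPM numbered 1 of 21 at E12.5, 11 of 49 at E13.5 and 0 of the 27 comparison wells. Each age is 1 plate, so age, litter and plate cannot be told apart.

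Neuropeptide precursors, which autonomic neurons co-release with their main transmitter, divided in direction. Of 20 listed, 8 were measured at E13.5, 4 were higher (Sst, Calca, Calcb and Adcyap1) and 1 was lower (Npy), with a median log2 fold of 1.496. Sst, somatostatin, ran from 0 to 2925 CPM in Slc18a3 wells (median 7.27 CPM) and from 0 to 297.5 CPM in comparison wells (median 0). It was read in 27 of 49 against 6 of 27 wells, and the pooled levels were 163.1 CPM (155.9 to 170) and 28.6 CPM (24.7 to 32.96), a log2 fold of 2.47, or 1.81 without the highest well. Npy, neuropeptide Y, a marker of noradrenergic vasoconstrictor neurons, ran from 0 to 1202 CPM (median 11.1 CPM) against 0 to 1334 CPM (median 181.4 CPM). Its pooled levels were 123.2 and 267.5 CPM, a log2 fold of -1.11, and -0.88 without the highest well of the higher group.

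Vip, vasoactive intestinal peptide, which cholinergic sympathetic neurons release, was close in pooled level, at 597 CPM (583 to 611) against 628 CPM (609 to 648). It was read more widely, in 34 of 49 Slc18a3 wells (0 to 8537 CPM, median 105.9 CPM) against 11 of 27 comparison wells (0 to 4006 CPM, median 0), and in 67.3% against 40.7% after thinning. Without the highest well of the higher group the log2 fold of Vip went from -0.07 to 0.32. Cartpt, the CART peptide precursor, ran from 0 to 5892 CPM (median 277.05 CPM) and from 0 to 4142 CPM (median 490 CPM). It stood at 761 against 919 CPM and was read in 45 of 49 and 26 of 27 wells.

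Peptides shared wells in both groups. Vip and Sst both reached 50 CPM in 17 of 49 Slc18a3 wells (34.7%, interval 21.7 to 49.6%) and in 2 of 27 comparison wells (7.41%, interval 0.910 to 24.3%). At the same limit, Sst without Vip was found in 2 and 1 wells, so most wells with Sst also had Vip in both groups. Npy without Vip was found in 5 of 49 against 11 of 27 wells. Calca and Calcb, the precursors of calcitonin gene-related peptides, had 0 reads in the comparison wells and were confined to few Slc18a3 wells. Calca was read in 6 wells (up to 635 CPM, pooled 26.1 CPM) and Calcb in 5 (up to 1904 CPM, pooled 79.2 CPM), and one or the other reached 50 CPM in 6 of 49. At E12.5 Calca was read in 4 of 21 wells and Calcb in 0. Adcyap1, the PACAP precursor, stood at 9.68 against 0.602 CPM. The other 12 peptide genes were under 5 CPM in both groups.

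**Figure D2:**
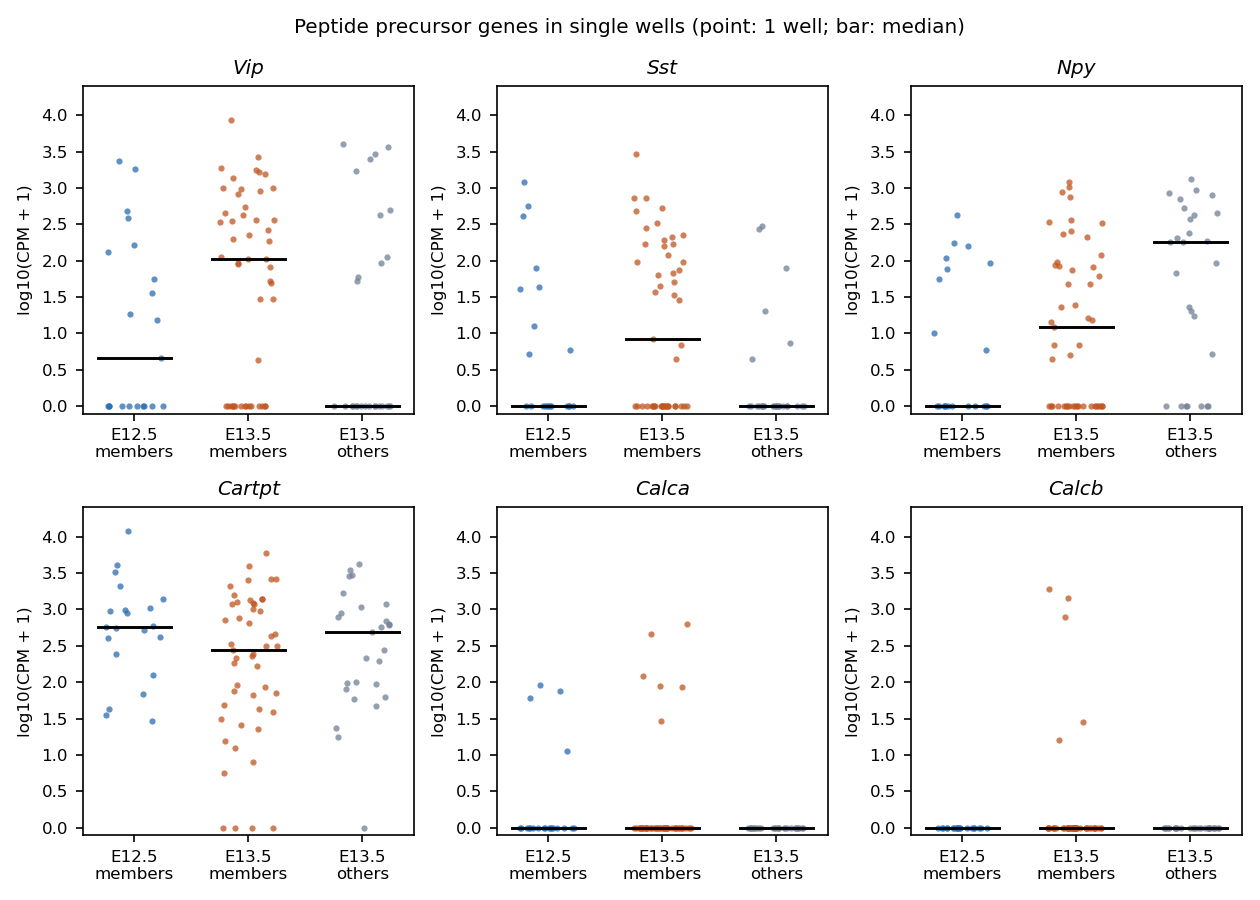
Levels of 6 peptide precursor genes in single gate wells as log10(CPM + 1), with 1 point per well and the median as a bar. Sst and Vip are read in a larger share of E13.5 Slc18a3 wells than of comparison wells, Npy in a smaller share (59.2% against 74.1%), and Calca and Calcb in 6 and 5 Slc18a3 wells and 0 comparison wells.

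Some receptor subunits for acetylcholine and serotonin were also higher in Slc18a3 wells. Of 12 acetylcholine and serotonin receptor subunits 9 were measured, 4 were higher and 1 lower, with a median log2 fold of 0.64. Htr3b, a subunit of the serotonin-gated channel, ran from 0 to 2041 CPM and was read in 19 of 49 Slc18a3 wells. In comparison wells it ran from 0 to 297.5 CPM and was read in 3 of 27, and the pooled levels were 230.5 and 12.9 CPM. Its partner Htr3a stood at 68.3 against 0.150 CPM, with reads in 10 of 49 and 1 of 27 wells. The nicotinic subunits Chrna4 (38.98 against 7.67 CPM) and Chrna7 (28.6 against 11.7 CPM) were higher too, while Chrna3, the main ganglionic subunit, was 288.6 against 184.6 CPM and under 2-fold. Chrm1, a muscarinic receptor, counted as lower at 0.668 against 6.92 CPM, but without the highest well of the higher group the log2 fold turned to 0.74.

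Growth factor and cytokine receptors were mostly in place in both groups. The GDNF receptor Ret, one of the genes most like Slc18a3 across wells, ran from 3.89 to 1707 CPM in Slc18a3 wells (median 642 CPM) and from 59.3 to 975 CPM in comparison wells (median 478 CPM), with pooled levels of 668 and 460 CPM, under 2-fold. Of 20 genes of the RET and neurotrophin receptor list 15 were measured, 4 were higher and 0 lower, with a median log2 fold of 0.44. The 4 were Gfra1 (the GDNF co-receptor, 55.6 against 11.3 CPM), Ngfr (the p75 neurotrophin receptor, 66.2 against 11.1 CPM), Kit (the stem cell factor receptor, 74.5 against 12.9 CPM) and Ntrk2 (the BDNF receptor, 14.2 CPM against 0 reads). Gfra2, the neurturin co-receptor, was 120.9 against 69.4 CPM and Gfra3, the artemin co-receptor, 448 against 609 CPM, both under 2-fold. Of 16 gp130 cytokine genes 11 were measured and 2 were higher, with a median of 0.60. These were Il6st, gp130 itself (32.2 against 10.7 CPM), and Socs2, an inhibitor of cytokine signalling. Socs2 was widespread, at 0 to 558 CPM (median 158.97 CPM, 47 of 49 wells) against 0 to 211.9 CPM (median 47.6 CPM, 24 of 27 wells). Its pooled levels were 197.3 and 50.9 CPM, a log2 fold of 1.94. Of 15 ligands for these receptors 5 were measured, 0 were higher and 2 lower, Igf2 and Ntf3, and neither was 2-fold lower without the highest well of the higher group, where Igf2 turned to 0.31.

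Transcription factors of the common sympathoadrenal programme hardly differed. Of 20, 18 were measured, 1 was higher (St18, 9.10 against 3.46 CPM) and 1 lower (Ebf2, 0.584 against 15.5 CPM), with a median log2 fold of 0.07. Of 30 factors linked to cholinergic and other neuron types 13 were measured, 4 were higher and 1 lower (Nr2f1, which had a log2 fold of 0.18 in male wells), with a median of 0.31. Hmx1, a homeobox factor of noradrenergic identity, stood at 19.4 against 3.31 CPM and had 0 reads in the 21 Slc18a3 wells of E12.5. Tbx20, a T-box factor of visceral motor neurons, was 40.2 against 11.6 CPM, Tbx3 was 118.4 against 38.8 CPM, and Casz1 23.9 against 8.88 CPM. Tbx3 was lower in male wells, with a log2 fold of -1.42. Tlx3, known for a role in cholinergic sympathetic neurons, was 21.6 against 29.04 CPM.

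Hox genes set position along the trunk. Of 25 Hox genes 21 were measured, 9 were higher and 1 lower (Hoxa4), with a median log2 fold of 0.95. Hoxd9 was read in 17 of 49 against 1 of 27 wells (pooled 42.2 against 1.20 CPM), and Hoxc10 in 27 of 49 against 6 of 27 (78.4 against 16.4 CPM). Hoxb9 had 8.76 CPM against 0 reads, and Hoxa3 5.42 against 0.451 CPM. Which axial level each dissected fragment held is not given in the sources used here.

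Neuronal structure lists leaned upward by less than 2-fold. None of the 20 cytoskeleton and RNA-binding genes passed 2-fold (median log2 fold 0.40), and of 19 measured synaptic vesicle genes only Syt1, a calcium sensor of release, did, at 170 against 83.1 CPM (median 0.41). Ion channels gave 5 higher and 1 lower of 14 measured, among them the calcium channels Cacna1b (38.6 against 15.3 CPM) and Cacna1c (17.1 against 6.62 CPM). Dense-core granule genes gave 3 higher of 14, Resp18 (98.1 against 38.97 CPM), Cadps (195.5 against 91.2 CPM, but a log2 fold of -0.078 in male wells) and Ptprn2. Axon guidance and adhesion gave 5 higher and 3 lower of 23, led by the semaphorin receptor Plxna2 (45.2 against 3.16 CPM) and, lower, the ephrin receptor Epha7 (9.10 against 32.95 CPM). BMP, TGF-beta and retinoid genes gave 5 higher and 2 lower of 18, with Id1, a BMP target, at 40.6 against 18.1 CPM (a log2 fold of -0.70 in male wells) and the BMP receptor Bmpr1b at 20.2 against 72.7 CPM. Of 8 measured Notch pathway genes 1 was higher and 2 were lower, and of 9 stress and immediate early genes 1 was lower, Fosb, which fell short without the highest well of the higher group. The same check took Syt1 to a log2 fold of 0.93. Ion channels kept 3 of 5 higher and 0 of 1 lower, and dense-core granules 2 of 3 higher. Axon guidance kept 4 of 5 higher and 1 of 3 lower. BMP, TGF-beta and retinoid genes kept 2 of 5 higher and 1 of 2 lower, and Notch genes 1 of 1 and 1 of 2.

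Proliferation was high in the gate. Mki67, a marker of cycling cells, reached 50 CPM in 20 of 21 Slc18a3 wells at E12.5, 33 of 49 at E13.5 and 22 of 27 comparison wells. Of 20 G1S genes (DNA replication) 0 were higher and 1 was lower at E13.5, Ccne1 (cyclin E1, 72.5 against 195.5 CPM), beside 6.11% lower over all measured genes. The median log2 fold of the list was -0.75. With 30 wells at 100 CPM or more of Slc18a3 set against the 20 without a read, 70% of the list was lower, and 40% within plate rows I to P. The 70% rests on a second cut on Slc18a3, and the share of all genes lower in that setting is not reported here. Of 20 G2M genes (mitosis) 2 were lower, Aurkb (66.4 against 182.2 CPM) and Top2a (413 against 910 CPM), with a median of -0.14. Top2a had a median of 111.2 CPM over Slc18a3 wells and 796 CPM over comparison wells, within overlapping ranges of 0 to 2838 and 0 to 2352 CPM. Restricted to gate wells below the median summed level of the G1S and G2M lists (27 and 11 wells), Chat was read in 16 of 27 Slc18a3 wells (pooled 60.2 CPM) and in 0 of the 11 comparison wells, and Sst stood at 234.3 against 65.1 CPM, a log2 fold of 1.83.

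**Figure D3:**
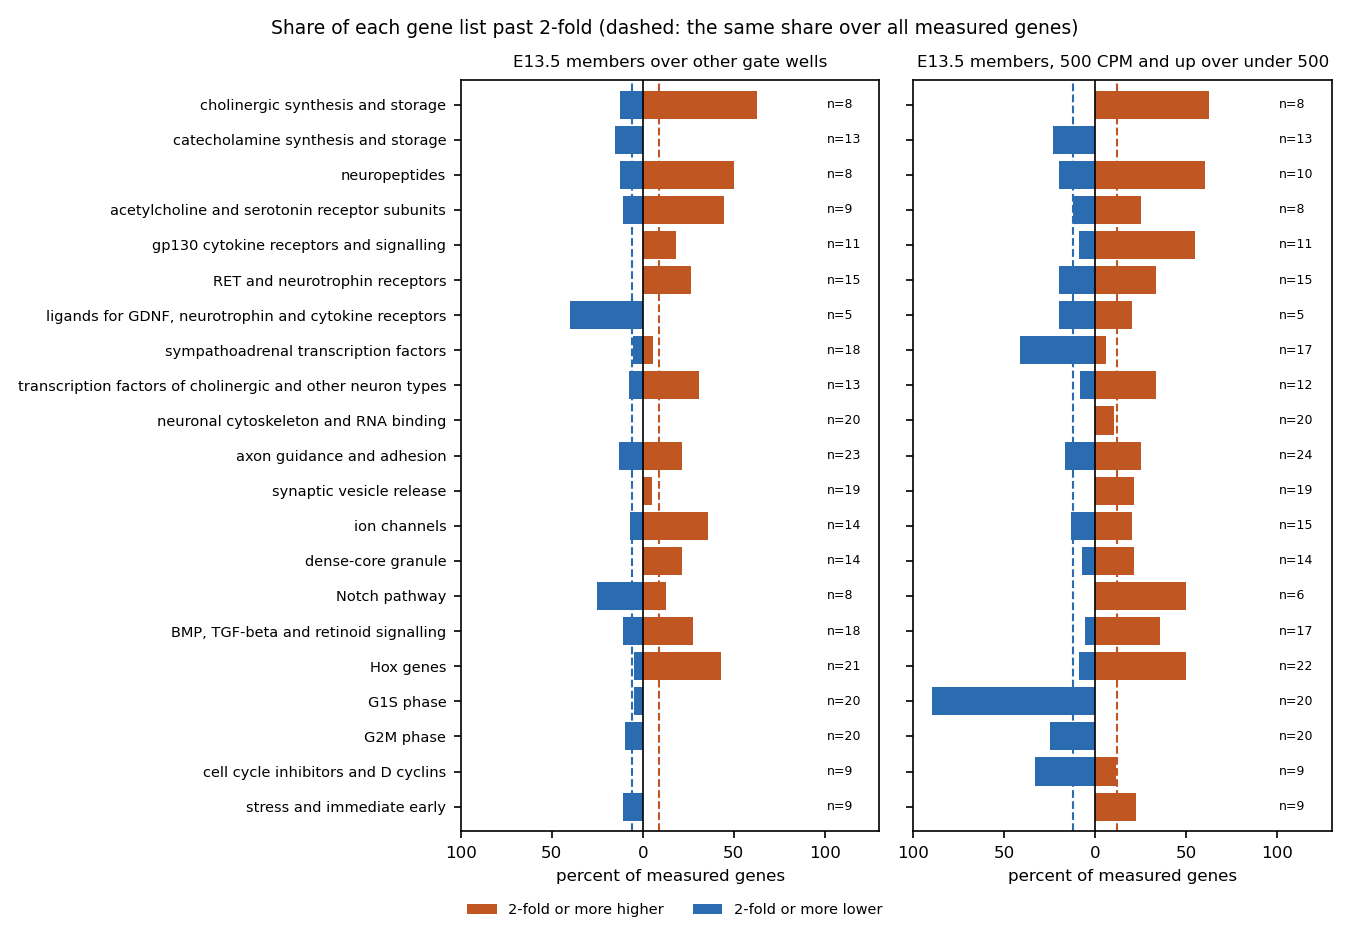
Percent of the measured genes of each list that were 2-fold or more higher (right, orange) or lower (left, blue), for E13.5 Slc18a3 wells over comparison wells and for the E13.5 Slc18a3 wells at 500 CPM or more over those below; n is the number of measured genes and dashed lines give the same percent over all genes. In the first comparison 5 of 8 cholinergic genes (Slc18a3, which cut the groups, among them), 4 of 8 neuropeptides, 4 of 9 receptor subunits and 9 of 21 Hox genes are higher, and in the second 18 of 20 G1S genes are lower.

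Outside the lists, genes were named by a rule (20 CPM and reads in 50% of wells of the higher group, still 2-fold without the highest well), which 53 genes met in the lower direction and more in the higher. The named higher genes were Fbxo44, Vwa5b2, Mast3, Mtrf1l, Mblac2, Hpca, Tm4sf4, Serpine2, Tex2, Tmem8b, Tppp3 and Plcb3. Tppp3, a microtubule-associated protein, was the most widespread, with reads in 81.6% against 51.9% of wells and 184.9 against 46.8 CPM. Tm4sf4, a tetraspan membrane protein, stood at 77.9 against 18.1 CPM, and at 22.5 CPM in chromaffin and 0.750 CPM in glial wells. Hpca, the calcium sensor hippocalcin, stood at 48.6 against 10.4 CPM. The named lower genes were Tmem194b, Fbxw7, Pask, Phf17, Usp40, Cep72, Ncapg, Simc1, Fanca, Hist1h1b, Prrt4 and Col18a1. The condensin subunit Ncapg stood at 30.3 against 101.9 CPM, the DNA repair gene Fanca at 22.2 against 71.6 CPM and Fbxw7, which marks cyclin E for degradation, at 21.9 against 85.2 CPM. In wells with lower levels of cell cycle genes Fanca and Cep72 changed sign, with log2 folds of 0.31 and 1.60, and in male wells Tex2 (-0.013) and Col18a1 (0.79) did.

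The Slc18a3 wells were not uniform. At E13.5, the 14 wells at 500 CPM or more (upper band) differed widely from the 35 wells between 50 and 500 CPM (lower band). Of 11205 measured genes 12% were higher and 12.3% lower in the upper band. Depth was close, with median reads of 261908 and 257004 and median genes of 7159 and 6631. The upper band held 13 female wells and 1 male well, the lower band 24 and 11, so sex and embryo moved with the band. Within female wells alone (13 and 24), the 14 genes followed through the alternatives kept their call.

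Acetylcholine genes were concentrated in the upper band. Chat was read in 14 of 14 upper-band wells (17.6 to 267.3 CPM, median 95.2 CPM) and in 10 of 35 lower-band wells (0 to 141.5 CPM, median 0), with pooled levels of 113.7 and 12.46 CPM. Slc5a7 was read in 12 of 14 wells (0 to 277.05 CPM, median 114.8 CPM) against 3 of 35 (0 to 34.1 CPM), pooled 127.8 against 1.66 CPM. In the 27 comparison wells Chat reads were confined to 2 of the 7 wells with some Slc18a3, and the 20 wells without Slc18a3 had 0. Leaving out Slc18a3, which cut the bands, 4 of 7 measured cholinergic genes were higher in the upper band, Chat, Slc5a7, Ache and Slc44a1. Slc44a1 went from a log2 fold of 1.76 to -0.31 without the highest well, and the other 3 stayed past 2-fold.

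Among the noradrenergic genes, Th and Slc6a2 ran the other way. From wells with no Slc18a3 read, through those under 50 CPM and the lower band to the upper band, pooled Th was 470, 374.3, 218.8 and 41.9 CPM. Slc6a2 went through 266.6, 222.6, 162.995 and 7.60 CPM, and was read in 1 of 14 upper-band wells against 24 of 35 in the lower band. Of 13 measured catecholamine genes 0 were higher and 3 lower in the upper band, Th, Slc6a2 and Cyb561, beside 12% and 12.3% over all measured genes. The rest stayed under 2-fold, among them Ddc (311.6 against 511.5 CPM), Slc18a2 (168.6 against 188.7 CPM) and Maoa (838 against 834 CPM). Dbh was read in every well of both bands because of the gate. At E12.5 the 6 wells at 500 CPM or more had a pooled 557 CPM of Th and the other 15 had 285.2 CPM, but 1 well at 2053 CPM carried the first value, which was 280.3 CPM without it. The medians were 224.6 and 313.2 CPM, in the same order as at E13.5. In those 6 wells Slc6a2 and Npy had 0 reads.

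Peptides separated the bands as well. Cartpt ran from 0 to 451 CPM in the upper band (median 33.97 CPM, 10 of 14 wells) and from 4.71 to 5892 CPM in the lower (median 716 CPM, 35 of 35 wells), with pooled levels of 133.7 and 1026 CPM. Vip was read in 12 of 14 and 22 of 35 wells but at pooled levels of 184.7 and 771 CPM. Sst was higher in the upper band, at 362.3 against 79.1 CPM, a log2 fold of 2.18 that was 1.03 without the highest well. It stood at 99.9 CPM in comparison wells with some Slc18a3 and at 1.45 CPM in those with none. Calca was read in 5 of 14 against 1 of 35 wells, and Calcb in 5 of 14 against 0 of 35. The gate gene Prph, itself a gene of mature peripheral axons, stood at 893, 990, 1222 and 3188 CPM over the 4 bands in order of Slc18a3.

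Receptor and Hox genes of the lists were among those higher in the upper band. Of 15 measured RET and neurotrophin receptor genes 5 were higher and 3 lower, and of 8 measured acetylcholine and serotonin receptor subunits 2 were higher and 1 lower. Htr3b was read in 12 of 14 against 7 of 35 wells (678 against 42.1 CPM), Gfra1 in 12 against 10 (143.01 against 18.7 CPM), Kit in 12 against 13 (187.5 against 26.9 CPM) and Ngfr in 11 against 12 (168.3 against 23.1 CPM). Hoxd9 was read in 13 of 14 wells (median 101.8 CPM) against 4 of 35, and Hoxc10 in 14 of 14 (70.4 to 326.6 CPM) against 13 of 35. Of 22 measured Hox genes 11 were higher, 7 of them also without the highest well, and 2 lower, Hoxc8 and Hoxa7. Of 12 measured factors of cholinergic and other neuron types 4 were higher, 3 of them also without the highest well, and 1 lower. The lower one was Tlx3, at 3.94 against 29.1 CPM, while Hmx1, of noradrenergic identity, was higher, at 40.3 against 10.6 CPM. The T-box factor Tbx3 stood at 310 against 37.8 CPM and Plxna2 at 122.7 against 12.46 CPM. Gfra3 was instead lower, at 101.1 CPM (0 to 331.1 CPM) against 594 CPM (0 to 1560 CPM), and so was the receptor Alk, at 1.13 against 21.8 CPM.

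Early sympathoadrenal factors and replication genes were low in the upper band. Of 17 measured factors of the sympathoadrenal list 7 were lower and 1 higher (Tlx2), with a median log2 fold of -0.64. Insm1, a factor of dividing neuroendocrine precursors, stood at 10.1 against 70.6 CPM, Tfap2b at 46.5 against 380.7 CPM and Prox1 at 23.4 against 129.3 CPM. Isl1 stood at 977 against 1139 CPM, short of 2-fold. Of 20 G1S genes 18 were lower, with a median of -1.74, among them Pcna (63.9 against 222.3 CPM) and Mcm3 (68.97 against 315.6 CPM). Of 20 G2M genes 5 were lower, with a median of -0.71. Mki67 was still read in 9 of 14 upper-band wells, with a median of 38.98 CPM against 527 CPM in the lower band.

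Markers of other cell types differed between the bands too. Of 10 chromaffin markers 8 were measured, 3 were higher, Htr3a, Resp18 and Chgb (106.4 against 41.9 CPM), and 1 lower, Cyb561. Of 10 spinal motor neuron markers 5 were measured, 3 were higher, Slc5a7, Chat and Prph, and 1 lower, Foxp1. Of 9 bridge cell markers (the transient state between Schwann cell precursors and chromaffin cells) 8 were measured and 7 were higher, but only 3 of 8 (37.5%) without the highest well of each gene. Of 12 mesenchyme markers 4 were measured and 3 were higher, Postn (256.2 against 46.9 CPM), Col3a1 (21.4 against 0.237 CPM) and Col1a2 (12.4 against 0.712 CPM), whose log2 fold went from 2.97 to 0.16 without the highest well. Of 12 enteric neuron markers 11 were measured, 2 were higher, Nos1 and Hoxb5, and 3 lower. Nos1, which makes nitric oxide, was read in 3 of 14 and 2 of 35 wells. The part of these transcripts in the band differences was not tested.

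**Figure D4:**
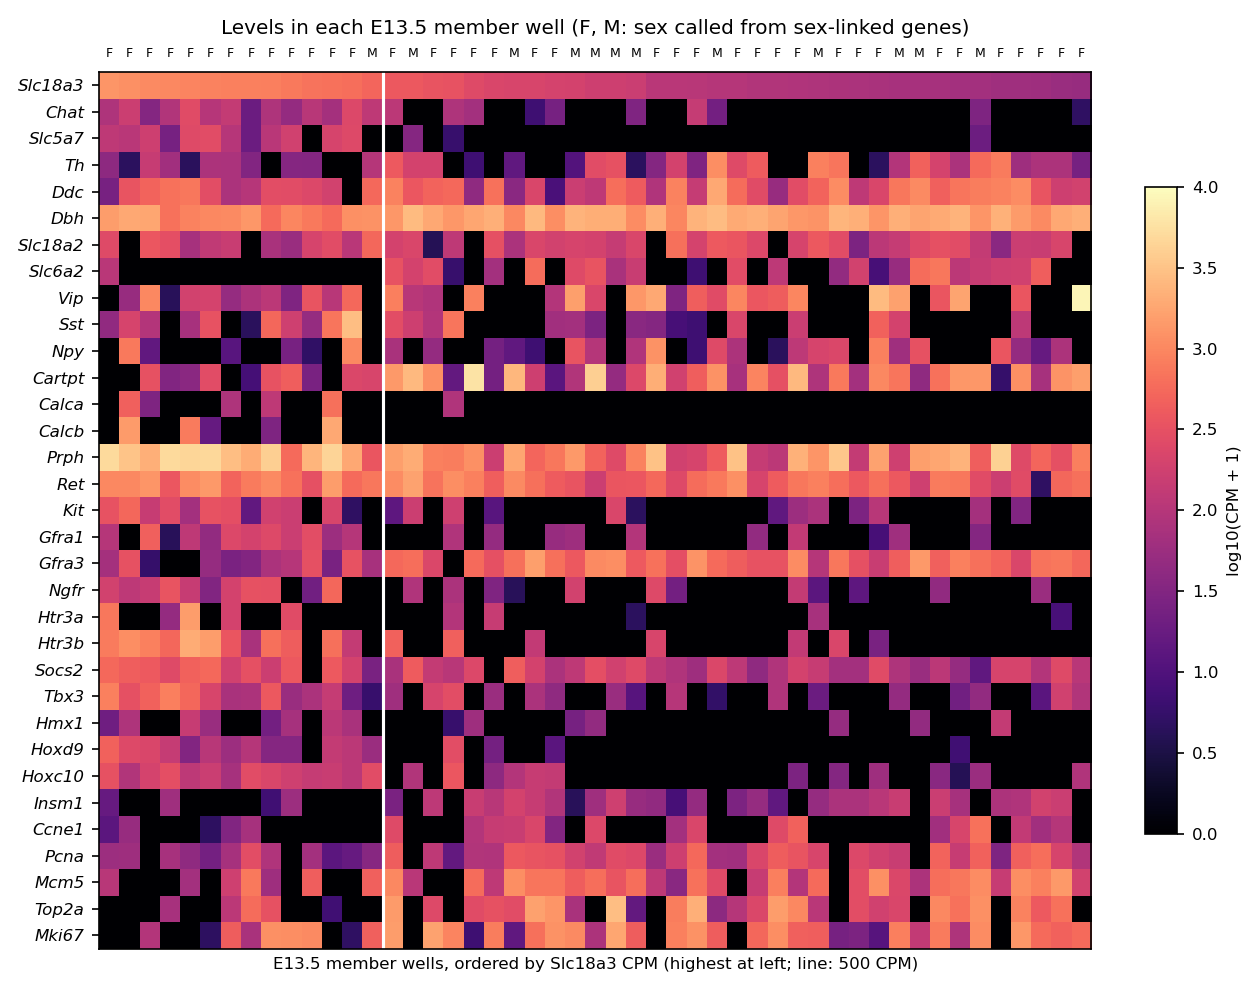
Levels of 33 genes, as log10(CPM + 1), in each of the 49 E13.5 Slc18a3 wells, ordered by Slc18a3 from the left, with the sex call above each column and a line at 500 CPM. The 14 wells left of the line hold most Chat, Slc5a7, Htr3b, Hoxd9 and Gfra1 and little Slc6a2, Insm1, Gfra3 and Ccne1.

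Between ages, more of the peptide list was higher than of the cholinergic or catecholamine list, but single wells carried part of it. Of 11062 measured genes 8.5% were higher and 6.07% lower at E13.5. Of 10 measured peptide genes 7 were higher, with Vip at 230 and 597 CPM, Sst at 68.1 and 163.1 CPM and Npy at 54.02 and 123.2 CPM at E12.5 and E13.5, and 1 was lower, Nts (12.53 CPM and 0 reads). Without the highest well of the higher group for each gene, 3 of the 7 were still 2-fold higher, Calcb, Adcyap1 and Gal, while the log2 fold of Vip went from 1.37 to 0.88, that of Sst from 1.25 to 0.58 and that of Npy from 1.17 to 0.93. Of 13 catecholamine genes Slc6a2 was higher, from 23.1 to 116.9 CPM, and Th lower, from 357.8 to 166.3 CPM, a log2 fold of -1.10 that was -0.77 without the highest well of the higher group. Of 8 cholinergic genes 1 was higher and 2 lower, of which 0 and 1 were still so without the highest well, while Chat (57.4 and 42.5 CPM) and Slc5a7 (69.2 and 39.1 CPM) stayed under 2-fold. Other named genes higher at E13.5 were Cdk14 (6.53 and 58.5 CPM), the Wnt inhibitor Sfrp1 (19.8 and 107.5 CPM), Gpr108, Rabl2 and Vrk3. Named lower genes were Cwc22, a splicing factor (196.6 and 15.5 CPM), the netrin receptor Unc5c (106.1 and 9.76 CPM), Itga1, Dock10, Adam12 and Y-linked Eif2s3y, which moves with the sex of the wells. No age fold can be given for the comparison wells, of which E12.5 had 1.

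Against chromaffin and glial wells, several levels were high in Slc18a3 wells, most of them also in comparison wells, which at E13.5 had 460 CPM of Ret, 628 CPM of Vip and 919 CPM of Cartpt. At the earlier and later age Ret was 984 and 668 CPM, against 192.4 and 77.6 CPM in chromaffin and 247.2 and 49.5 CPM in glial wells. Socs2 was 201.1 and 197.3 CPM against 23.4 and 16.3 CPM in chromaffin and 14.3 and 14.8 CPM in glial wells. Vip and Sst were under 1 CPM in both other classes. Cartpt was 1058 and 761 CPM against 8.52 and 25.7 CPM in chromaffin wells. Tbx20, by contrast, was higher in chromaffin wells (477 and 232.4 CPM) than in Slc18a3 wells (53.8 and 40.2 CPM). Female wells were 20.6% of called chromaffin wells at E13.5 and 75.5% of called Slc18a3 wells.

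**Figure D5:**
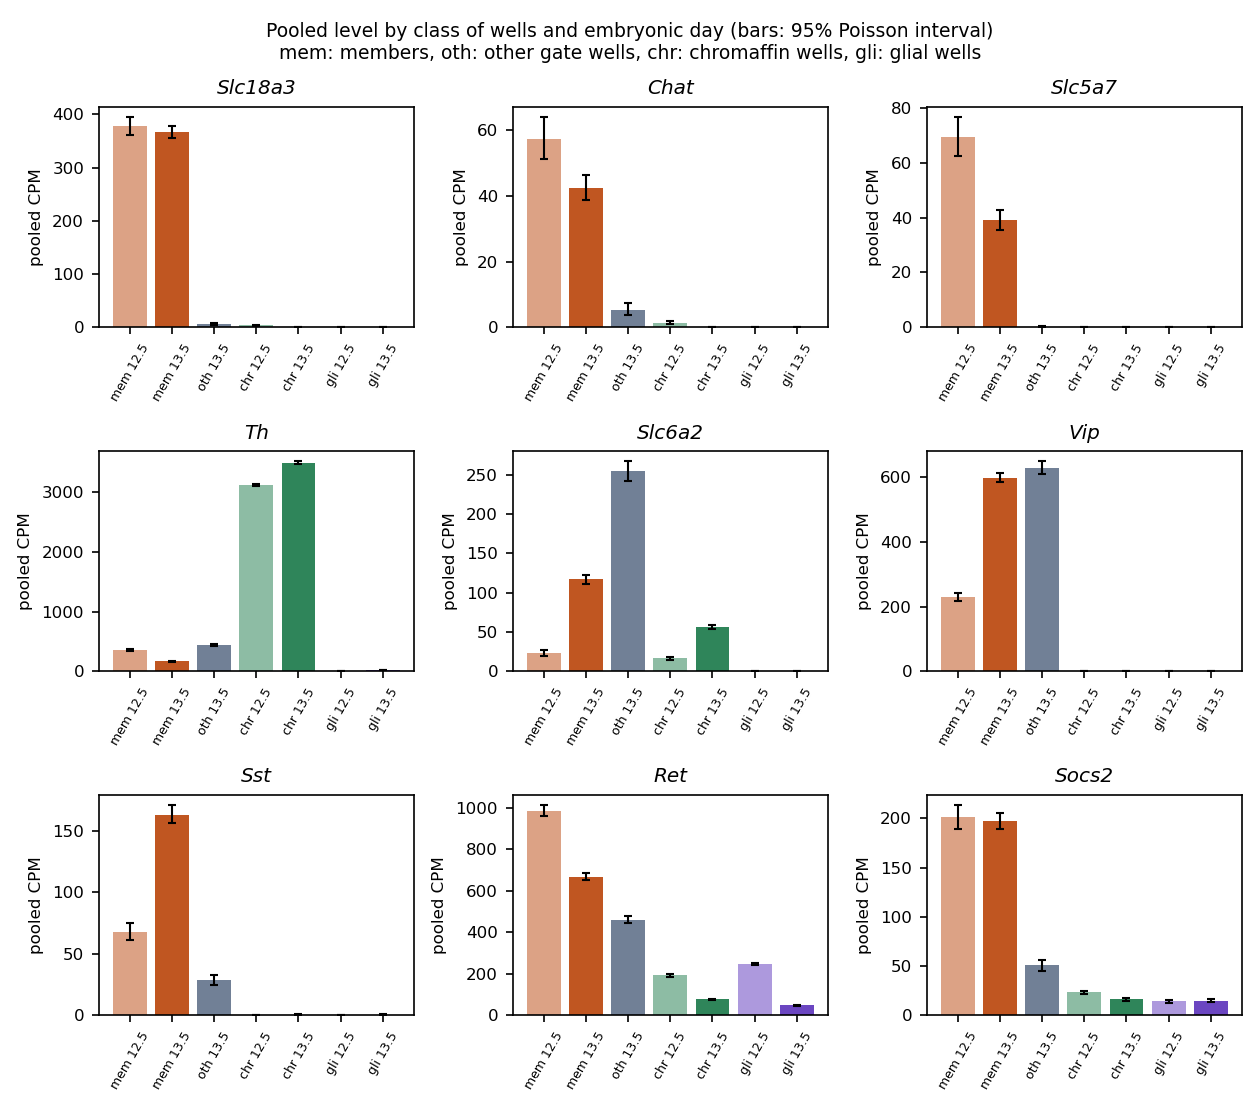
Pooled CPM of 9 genes by class of wells and embryonic day, with 95% Poisson intervals as bars (linear axes from 0). Slc18a3, Chat and Slc5a7 are highest in Slc18a3 wells, Th in chromaffin wells (3114 and 3483 CPM), and Ret and Socs2 in Slc18a3 wells at both ages.

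Across all gate wells, the genes most like Slc18a3 were ranked by the smaller of their Spearman correlations at the 2 ages (22 and 76 wells, 8680 genes read in at least 25% of wells at both). The 10 leading genes were Pmp22, Cdk6, Chst15, Tm4sf4, Ret, F2r, Pcsk1n, Cd9, Rab3a and Gng3. Their correlations at E13.5 lay between 0.39 for Gng3 and 0.56 for Tm4sf4. Chat had 0.30 at E12.5 and 0.68 at E13.5, Slc5a7 0.48 and 0.64, Th -0.27 and -0.43, and Slc6a2 -0.47 and -0.40. Wells of 1 age share a plate and depth varies between them, so these values describe the wells and carry no test.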

How the data were processed

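Single Tomato+ cells were sequenced by Smart-seq2, per the labels' protocols, and the deposited tables hold raw read counts per gene symbol, 1 column per well. The submitters' processing notes name TopHat2, HTSeq and the mm9 build. For versions, annotation, strand setting and doublet treatment, the entry is "not given in the sources used here", and reads of overlapping genes such as Slc18a3 and Chat may be split in ways not known. All 768 columns were mapped to a sample, and 0 pairs of wells were identical. Doublets were not called.

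Counts were divided by the column total (23420 symbols) to give CPM. Group levels are reads summed over wells. Log2 folds add 1 CPM, and a call needs 5 CPM in either group and 2-fold. Because the labels name no embryo, no model was fitted, and p-values are absent. The calculation was tested on simulated counts. Shares were also computed after thinning to 50000 reads (seed 5). A well was female with 5 or more Xist reads and under 5 Y-linked reads, and male in the reverse case.

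The wells and the 35 gene lists (483 genes, 481 found) were chosen with earlier results of these data known. Named genes were all cholinergic, catecholamine and peptide genes, up to 4 per direction of other lists, 12 unlisted per direction, 10 most like Slc18a3, and 6 per direction between ages (50 CPM). Because E12.5 had fewer than 10 comparison wells, E13.5 alone was used for the comparison. Other genes named by role were chosen after their values were seen. Some listed genes are counted but not reported here by name. Python 3.11.15, numpy 2.4.6, pandas 2.3.3, scipy 1.17.1, R 4.3.3, edgeR 4.0.16 and DESeq2 1.42.0 (the last pair for scaling factors only) were used. Promoter windows are RefSeq's, on GRCm38.p6, and no position on mm9 is given.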

Additional observations from a re-analysis of the deposited data

Results flagged for a closer look

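Among the named genes, 4 were past 2-fold in opposite directions in the female wells (37 Slc18a3 and 17 comparison wells) and in the male wells (12 and 9) at E13.5. The difference between the sexes was not tested, and wells of 1 sex may come from 1 or few embryos. Igf2, an insulin-like growth factor, had a log2 fold of -2.50 in female and 3.53 in male wells. Tbx3 had 1.89 and -1.42. Chl1, a neural adhesion molecule, had 4.62 and -1.27. Star, a cholesterol carrier of steroid-forming cells, had 4.18 and -2.56.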

How the results depend on the processing

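No paired analysis was possible because each age is 1 plate of single wells whose numbers only name them. With the Slc18a3 limit at 100 CPM, 30 wells remained at E13.5. The E13.5 comparison gave 8.71% of measured genes higher and 6.11% lower. It gave 5.47% and 3.34% with 5 CPM added, 7.38% and 4.52% with no filter on low levels, 5.11% and 3.84% at 20 CPM or more, 17.7% and 10.97% in plate rows A to H (25 and 10 wells), 13.1% and 9.80% in rows I to P (24 and 17), 17.95% and 14.1% in male wells (12 and 9), and 17.5% and 11.4% in wells with lower summed G1S and G2M levels (27 and 11), so these smaller groups gave more calls. Without the highest well of the higher group for each gene 2.18% were lower. In male wells 0% of catecholamine genes were lower. The share of G1S genes lower was 5% in the main comparison, 70% for wells at 100 CPM or more against wells without a read (30 and 20), and 40% in rows I to P. The 70% rests on a second cut on Slc18a3, and the share over all genes in that setting is not reported here. Between ages 8.5% were higher and 6.07% lower, against 5.13% and 3.54% with 5 CPM added, 18.1% and 11.8% in female wells (6 and 37), and 13.9% lower in male wells. Between bands, 12% of genes were higher, and 5.87% without the highest well. G1S genes lower in the upper band went from 90% to 100% in female wells and to 100% with the mean of well CPM, and bridge markers higher from 87.5% to 37.5% without the highest well.

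Of 1094 values for 96 named genes under the alternatives, 954 kept their direction and side of 2-fold, 18 changed sign and the others fell short. With TMM or DESeq2 scaling all 96 kept theirs, but the factors were too close to 1 to move a call. They were 1.002 and 0.998 for TMM and 1.0003 and 0.9997 for DESeq2. Genes named outside the lists kept theirs without the highest well by the rule that named them. Signs changed in rows A to H for Slc6a2 (1.86) and Smad7 (-0.0011). Without the highest well they changed for Chrm1 (0.74), Igf2 (0.31) and Dcn (0.22). In male wells they changed for Igf2 (3.53), Tbx3 (-1.42), Nr2f1 (0.18), Chl1 (-1.27), Cadps (-0.078), Smad7 (-0.31), Id1 (-0.70), Star (-2.56), Tex2 (-0.013) and Col18a1 (0.79). In wells with lower G1S and G2M levels they changed for Epha7 (0.68), Cep72 (1.60) and Fanca (0.31). The cause was not tested. Wells with few mitosis transcripts numbered 3 and 1, and that alternative was not run. The alternatives by summed G1S and G2M level, those of the bands and the lists without Slc18a3 were chosen after seeing the data. Depth limits a single well to genes of several reads, and the E12.5 comparison to 1 well.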
